A study of Mus musculus with 4 samples.

Results

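The 9 genes described here encode the scramblases and flippases that set on which side of the plasma membrane phosphatidylserine lies. They were taken by symbol as a fixed list, 5 scramblases (Xkr8, Xkr4, Ano6, Plscr1, Plscr3) and 4 flippase genes (Atp11a, Atp11b, Atp8a1, Tmem30a), and each matched 1 of the 52636 Ensembl genes in the files. RNA was measured by bulk RNA-seq in cells dissociated from the corpus callosum, a white matter tract, of mice labelled as Mertk knockout (Mertk is a receptor for apoptotic cells) on chow with 0.2% cuprizone, a copper chelator toxic to oligodendrocytes, for 4 weeks. The groups were AnnexinV-positive cells, called dying in the series' design, and AnnexinV-negative cells, called living, with 2 libraries each; genotype, diet, time and tissue were shared by both groups, and no wild-type or untreated library was used. Sex, age and the number of mice are not in the labels, nor is it said that the replicates are different mice; the p-values below therefore cover the spread of these 4 libraries alone, which may be technical.

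In a living cell phosphatidylserine is kept on the inner leaflet by flippases, P4-type ATPases that use ATP to move it inward and that mostly need a CDC50 subunit to leave the endoplasmic reticulum. Scramblases let phospholipids pass both ways without ATP; Xkr8 and its relatives are switched on when caspases cut them, Ano6 (TMEM16F) when calcium rises, and caspases also inactivate the flippase Atp11a. Annexin V binds phosphatidylserine that has reached the outside, so the groups were separated by the lipid these proteins move. Cutting by caspases and activation by calcium act on protein and are not seen in RNA.

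Levels are RPKM, reads divided by the gene's length and by a library's scale, so genes can be compared per length. Recovered from the values, reads in genes came to 67459677 and 60146733 for AnnexinV-positive cells and to 50535730 and 43253956 for AnnexinV-negative cells. Homeostatic microglia markers were higher in AnnexinV-positive cells in 14 of 14 listed genes (limma; median log2 difference 1.24; summed RPKM 5616 to 5684 against 2197 to 2701), Fcrls and Csf1r among them. With each library scaled to the same sum (TPM) 0 of the 14 were called, where 1.03% of all genes tested were higher. The markers' median on that scale was 0.46, against -0.32 over all genes tested. Mature oligodendrocyte markers were lower in 14 of 15 (median -4.96; summed RPKM 49.9 to 162 against 565 to 1102), with Enpp2 the exception (adjusted p 0.484). Oligodendrocyte precursor markers were lower in 7 of 8 tested, astrocyte markers in 9 of 11 and endothelial markers in 6 of 8. In bulk samples fewer cells of a type and less RNA per cell cannot be told apart, and the part of this shift in the values below was not tested.

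Levels of the members ran from 0.205 to 33.8 RPKM, and 2 of them rose in AnnexinV-positive cells: the scramblases Plscr3 and Ano6. None of the 4 flippase genes passed the test in either direction. A gene entered the test (limma on log2(RPKM + 0.1), adjusted p under 0.05 over 10927 genes) where its RPKM was at least 1 in 2 libraries. Of the 9 members 6 did; Xkr8, Xkr4 and Plscr1 did not. Higher calls took 30.8% of all genes tested and lower calls 9.26%. The members' 2 of 6 (33.3%) higher and 0 lower calls are close to that background. Their median log2 difference was 0.26, against 0.45 over all genes tested.

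**Figure D1:**
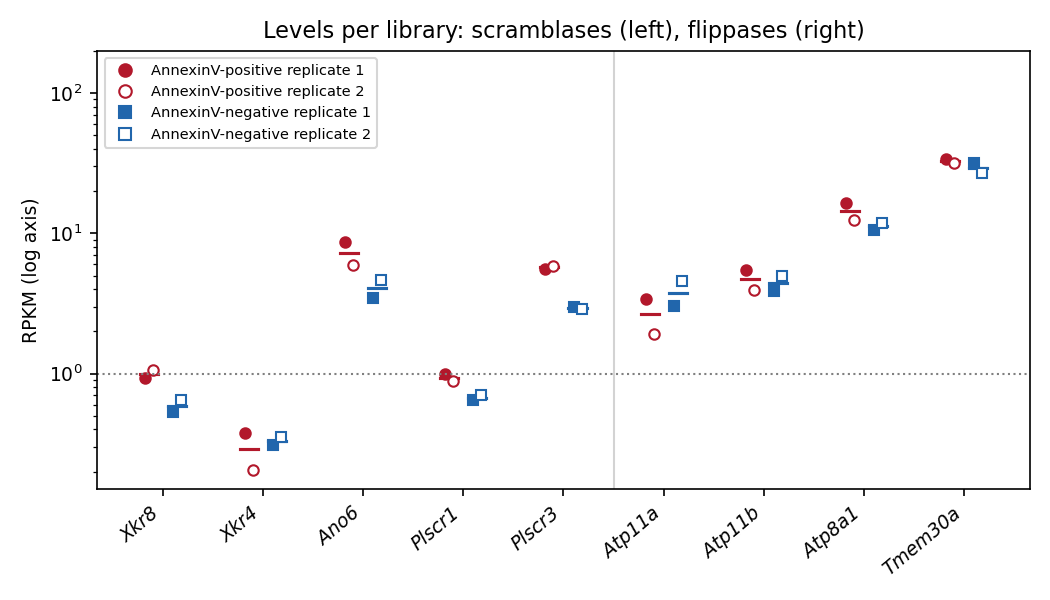
RPKM of each listed gene (log axis) in the 4 libraries; circles are AnnexinV-positive, squares AnnexinV-negative, filled for replicate 1 and open for replicate 2, bars are group means and the dotted line is an RPKM of 1. Tmem30a is highest at 27.0 to 33.8, Xkr4 lowest at 0.205 to 0.376, and the groups are apart for Plscr3 (5.56 and 5.86 against 2.996 and 2.89).

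The order of levels was much the same in all libraries. Tmem30a, the CDC50 subunit, was first and the flippase Atp8a1 second in all 4, and Xkr4 was last. Between them the groups differed. In AnnexinV-negative cells Atp11b came next, followed by Ano6, Atp11a and Plscr3, and the ranges of Atp11b (3.88 to 4.94), Ano6 (3.48 to 4.66) and Atp11a (3.01 to 4.55 RPKM) overlapped, so that their order there is not beyond their spread. In AnnexinV-positive cells Ano6 (5.91 to 8.68) and then Plscr3 (5.56 to 5.86) came next, ahead of Atp11b (3.92 to 5.50) and Atp11a (1.92 to 3.41 RPKM). Xkr8 and Plscr1 lay near each other below these, and changed places between the 2 AnnexinV-positive libraries.

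Promoter windows show what lies just before the starts of the 2 scramblase genes that rose. RefSeq windows (GRCm38.p6) were matched for 7 of the 9 members. The 120 bases before the start sites, on the plus strand, are given 5′ to 3′ with GC boxes in capitals (GGGCGG or, read on the other strand, CCGCCC; boxes may overlap or adjoin):
Ano6 (chr15:95790723-95790842): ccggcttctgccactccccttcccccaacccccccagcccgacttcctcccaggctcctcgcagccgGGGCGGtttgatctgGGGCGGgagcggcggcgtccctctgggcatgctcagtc
Plscr3 (chr11:69846252-69846371): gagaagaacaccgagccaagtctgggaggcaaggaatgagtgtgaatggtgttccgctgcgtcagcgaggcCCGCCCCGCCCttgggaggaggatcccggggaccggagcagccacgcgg
Each window held 2 GC boxes, the first starting 53 bases before the start of Ano6 and 49 before that of Plscr3. A GC box lay in the 250 bases before the start of 6 of the 7 matched members, including 3 flippase genes that did not pass the test (Atp11a, Atp11b, Atp8a1), and in 32.7% of all 32851 promoter windows. These windows include genes not tested here. The share among the genes tested was not counted, so the 2 shares are not matched. The interferon response element GAAANNGAAA (or TTTCNNTTTC) was found in 0 of the 7, and in 2.98% of all windows. For Plscr1 the RefSeq start lay 444 bases inside the gene's span given below. Its window of 250 bases therefore lay within that span, and the bases before the span were not searched. A match of letters is a description only.

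Ano6, the calcium-activated scramblase (chromosome 15, 95790843 to 95974751, plus strand, protein coding), had RPKM values of 8.68 and 5.91 in AnnexinV-positive and of 3.48 and 4.66 in AnnexinV-negative cells. Both AnnexinV-positive libraries were above both others, but AnnexinV-positive replicate 1 was well above its own replicate, and the gap from 5.91 down to 4.66 was smaller than that within the AnnexinV-positive group. The group means were 7.30 ± 1.96 and 4.07 ± 0.833 (SD, n = 2 each), and the log2 difference was 0.81 (SE 0.26, limma adjusted p 0.0420). The call was lost without AnnexinV-positive replicate 1 (log2 difference 0.54, limma adjusted p 0.233) and without AnnexinV-negative replicate 1 (0.61, 0.106). About 10531 and 6245 reads against 5134 and 5543 stood behind these values, so counting error was small beside the spread between libraries.

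Plscr3 (chromosome 11, 69846376 to 69852058, plus strand, protein coding) belongs to the phospholipid scramblase family and is known from mitochondria. Its RPKM was 5.56 and 5.86 in AnnexinV-positive cells and 2.996 and 2.89 in AnnexinV-negative cells. The replicates lay close together and the groups far apart. The means were 5.71 ± 0.213 and 2.94 ± 0.0742 (SD, n = 2 each), with a log2 difference of 0.93 (SE 0.19, limma adjusted p 0.00967). The call was lost without AnnexinV-positive replicate 2 (0.90, limma adjusted p 0.0673). Of its exonic bases 28.3% are shared with Tnk1, whose own level was 0.00618 to 0.0255 RPKM, and the library kit does not keep strand.

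Xkr8, the scramblase that caspases activate (chromosome 4, 132724897 to 132732546, minus strand), was at 0.931 and 1.06 RPKM in AnnexinV-positive cells and at 0.533 and 0.652 in AnnexinV-negative cells. The groups did not overlap, but only 1 library reached an RPKM of 1, so it was not tested. The log2 difference was 0.67, and in a fit over the 30494 genes that reached 0.1 RPKM in 2 libraries the limma adjusted p was 0.123. Between 272 and 397 reads per library were recovered. Its relative Xkr4 (chromosome 1, 3205901 to 3671498, minus strand), which caspases also activate and which is known from brain, was at 0.376 and 0.205 against 0.309 and 0.355 RPKM. The AnnexinV-positive values lay on both sides of the AnnexinV-negative ones (log2 difference -0.18; limma adjusted p 0.749 in the same wider fit).

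Plscr1 (chromosome 9, 92249750 to 92272278, plus strand), a family member that interferon induces, was at 0.987 and 0.884 RPKM in AnnexinV-positive and 0.647 and 0.702 in AnnexinV-negative cells. Again the groups did not overlap and the gene lay below the minimum for the test. Its log2 difference was 0.42, with a limma adjusted p of 0.290 in the wider fit. Plscr1 was at 0.151 to 0.178 of the Plscr3 level in AnnexinV-positive and 0.216 to 0.243 in AnnexinV-negative libraries. In the wider fit all 9 members were tested and 1, Plscr3, was called higher, with 0 lower; of all genes in that fit 9.66% were higher and 12.8% lower, and at an unadjusted p under 0.05 limma gave 3 members higher and 0 lower, beside 17.6% and 19.9% of all genes.

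Tmem30a (chromosome 9, 79768943 to 79793507, minus strand), the CDC50 subunit that most P4-ATPases need, was at 33.8 and 31.6 RPKM in AnnexinV-positive and 31.5 and 27.0 in AnnexinV-negative cells. These 4 values lay within a narrow range, with AnnexinV-positive replicate 2 and AnnexinV-negative replicate 1 almost equal. The log2 difference was 0.16 (SE 0.18, limma adjusted p 0.477). Atp8a1 (chromosome 5, 67618140 to 67847434, minus strand), a phosphatidylserine flippase of endosomes and plasma membrane, was at 16.3 and 12.5 against 10.6 and 11.9 RPKM. Its groups did not overlap, but the log2 difference of 0.35 (SE 0.20) had a limma adjusted p of 0.196.

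Atp11a (chromosome 8, 12757014 to 12868728, plus strand), a plasma membrane flippase that caspases cut, was at 3.41 and 1.92 RPKM in AnnexinV-positive and 3.01 and 4.55 in AnnexinV-negative cells. The groups overlapped, with AnnexinV-positive replicate 2 the lowest and AnnexinV-negative replicate 2 the highest library. Its log2 difference of -0.51 (SE 0.32, limma adjusted p 0.231) was the one negative value among the 6 members tested. Atp11b (chromosome 3, 35754106 to 35856276, plus strand), a flippase known from endosomes, was at 5.50 and 3.92 against 3.88 and 4.94 RPKM and overlapped too (0.08, SE 0.24, limma adjusted p 0.794). At an unadjusted p under 0.05 limma in the wider fit also called 0 of the 4 flippase genes, beside 17.6% of all genes higher and 19.9% lower. Over the 9 members the groups did not overlap for 6, all higher in AnnexinV-positive cells, where 32.5% of the 30494 genes of the wider fit were higher without overlap. In TPM 1 member, Plscr3, was higher without overlap, and 6 were lower without overlap (Xkr4, Plscr1, Atp11a, Atp11b, Atp8a1 and Tmem30a), beside 6.36% and 59.7% of those genes. The genes of the wider fit had a median log2 difference of 0.06 on the deposited scale, against 0.45 for the 10927 in the main test. Their shares without overlap are therefore not matched to the members' levels.

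The direction of 7 of the 9 differences depended on the library scale, Atp11a and Xkr4 being negative on all 4. Summed over all genes, the deposited values came to 200348 and 217768 RPKM for AnnexinV-positive against 122944 and 120680 for AnnexinV-negative cells. The median gene tested was at 0.45 on the deposited scale, 0.13 with each library centred on the median level of the genes tested, -0.32 with each library scaled to the same sum (TPM) and -0.68 with each centred on the microglia markers. On these 3 other scales the log2 differences of Ano6 were 0.50, 0.05 and -0.31, and those of Plscr3 0.62, 0.18 and -0.19, none past the test (limma adjusted p 0.0531 at the lowest, for Plscr3 on the centred scale). Members called higher were thus 0 on each of the 3 scales, where 10.4%, 1.03% and 0.201% of all genes were higher. Atp11a was lower at -1.30 on the TPM scale (limma adjusted p 0.0447), where 19.1% of all genes were lower. In the wider fit on that scale Atp11a (limma adjusted p 0.0464) and Tmem30a (-0.61, 0.0466) were lower, with 25.8% of all genes. With libraries centred on microglia markers all 4 flippase genes were lower, with Atp11a at -1.64, Atp11b at -1.04, Tmem30a at -0.96 and Atp8a1 at -0.77, where 49.4% of all genes were lower; neither scramblase tested passed there. In the wider fit on that scale Xkr4 (-1.30, limma adjusted p 0.0169) and Plscr1 (-0.70, 0.0483) were lower too. The share of all genes lower in that wider fit was not counted. With the median gene tested at -0.68 on this scale, these calls cannot be read as particular to the members. A level in TPM shows the same: Tmem30a was at 169 and 145 TPM against 256 and 224, and Plscr3 at 27.8 and 26.9 against 24.4 and 24.0.

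**Figure D2:**
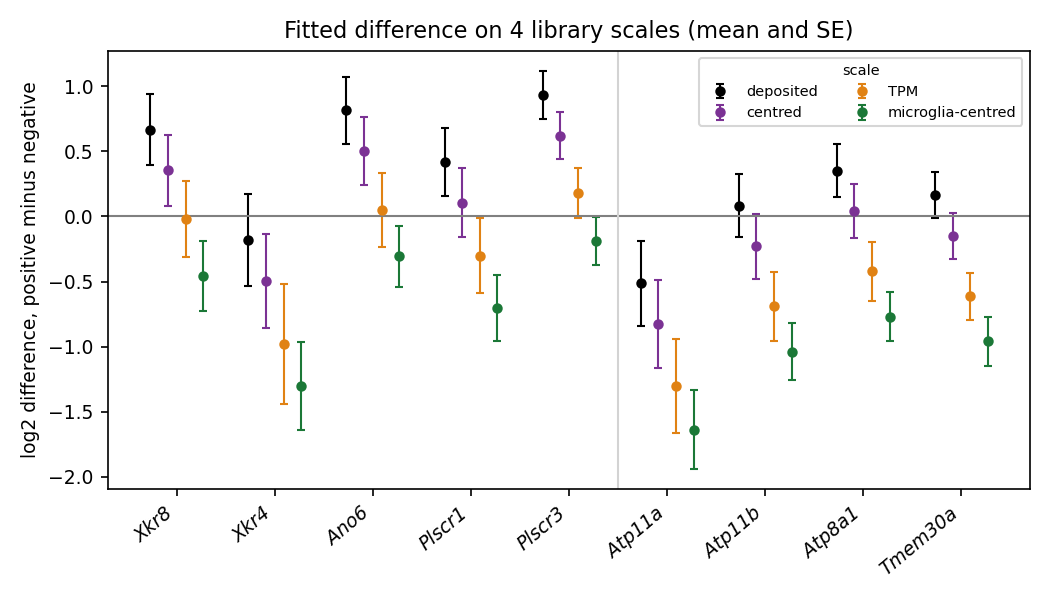
Log2 difference, AnnexinV-positive minus AnnexinV-negative, with its SE, for each listed gene on 4 library scales (limma; Xkr8, Xkr4 and Plscr1 from the fit with the lower minimum). All 9 genes lie lower on the 3 other scales than on the deposited one: Plscr3 goes from 0.93 to -0.19 and Atp11a from -0.51 to -1.64.

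Ratios of 2 genes within a library do not depend on its scale. Plscr3 stood at 0.165 and 0.186 of the Tmem30a level in AnnexinV-positive and at 0.0952 and 0.107 in AnnexinV-negative libraries. Ano6 stood at 0.257 and 0.187 of Tmem30a against 0.111 and 0.172, and Xkr8 at 0.0276 and 0.0336 against 0.0170 and 0.0241. For these 3 scramblases both AnnexinV-positive libraries were thus above both others, for Ano6 and Xkr8 by less than the spread within a group. Tmem30a itself was at a log2 difference of 0.16, below the median of 0.45 over all genes tested. The median gene therefore also rises against it. The share of all genes whose ratio to Tmem30a was higher without overlap was not counted. Ratios of Xkr4 and Plscr1 to Tmem30a were not taken. The ratio of Ano6 to Atp11a was 2.55 and 3.07 in AnnexinV-positive and 1.16 and 1.02 in AnnexinV-negative cells, wider apart between groups than within. Against Tmem30a the flippases overlapped between groups: Atp8a1 stood at 0.484 and 0.396 against 0.336 and 0.439. The ratio of Ano6 to Csf1r, a receptor of microglia and one of the marker genes, went the other way, at 0.0130 and 0.0112 in AnnexinV-positive and 0.0164 and 0.0165 in AnnexinV-negative cells. That of Plscr3 to Csf1r overlapped between groups, at 0.00833 and 0.0111 against 0.0141 and 0.0102. The pairs were chosen after the levels had been seen and were not tested; with 2 libraries against 2 an exact permutation test cannot give a p below 0.333.

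Replicates of a group differed along gene length, and 4 members are among the long genes. Over 10921 genes tested, the log2 difference of AnnexinV-positive replicate 1 minus 2 went with log2 exonic length at a Spearman's rho of 0.45, and that of AnnexinV-negative replicate 1 minus 2 at -0.52; these are correlations across genes of the same libraries. Genes of at least 9000 bp had medians of 0.16 and -0.27, those under 2000 bp of -0.31 and 0.42. Ano6 (12269 bp) was at 0.55 and -0.41, Atp11a (11150 bp) at 0.79 and -0.58, Atp11b (9176 bp) at 0.48 and -0.34 and Atp8a1 (14278 bp) at 0.38 and -0.17. Plscr3 (3148 bp) was at -0.07 and 0.05. The 4 long members thus shared the sign of the length trend in both groups. The same signs were seen in the shorter Xkr4 (6094 bp, 0.64 and -0.15) and Plscr1 (2462 bp, 0.14 and -0.10). They were not seen in Xkr8 (4312 bp, -0.17 and -0.25) or Tmem30a (5646 bp, 0.10 and 0.22). With the trend on length and the level of each library subtracted together, an alternative added after seeing the data, Ano6 was at 0.40 (limma adjusted p 0.140), Plscr3 at 0.46 (0.0684) and Atp11a at -0.93 (0.0158), and the median of all genes at -0.04, down from 0.45. Of the 10921 genes 1830 were called lower in that fit and 1270 higher, so the call of Atp11a is not particular to it. Both scramblase calls were already lost with libraries centred and no length adjustment, and the subtraction also removes a length trend between the groups.

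**Figure D3:**
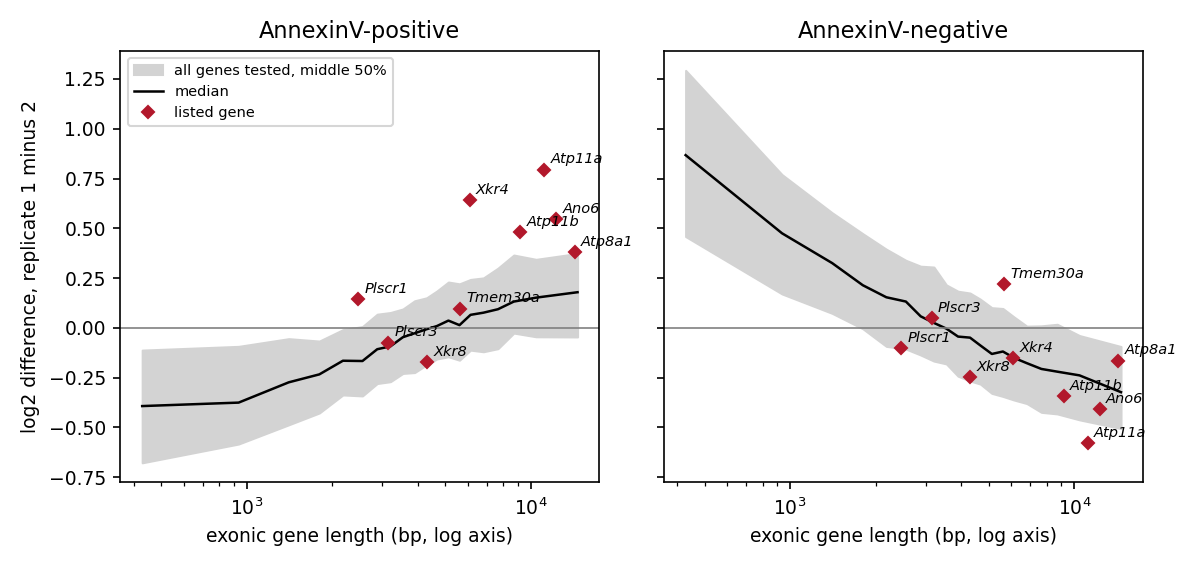
Log2 difference of replicate 1 minus 2 against exonic length (bp, log axis) in each group; the line is the median and the grey band the middle 50% of all genes tested in 20 length bins, diamonds are listed genes. Atp11a, Ano6 and Atp11b lie above 0 in AnnexinV-positive (0.79, 0.55, 0.48) and below 0 in AnnexinV-negative cells (-0.58, -0.41, -0.34).

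The genes whose profile over the 4 libraries was nearest (Euclidean distance of gene-centred log2 values) were Atp7a and Tbc1d2b for Ano6 (0.054 and 0.063), Clk1 and Sh3glb1 for Plscr3 (0.016 and 0.030) and Klhl42 and Ndst1 for Atp11a (0.12 and 0.16). For Atp11b they were Kdm4c and Rprd1a (0.035 and 0.036), for Atp8a1 Ctdspl2 and Zfyve26 (0.035 and 0.038) and for Tmem30a Tspyl1 and Mut (0.014 and 0.021). With 4 libraries in 2 groups, many genes share a profile.

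Other genes of phospholipid asymmetry, 52 in number, were read from the same fit. Of 25 tested, 10 were higher and 2 lower, 40% and 8%, against 30.8% and 9.26% of all genes tested, with a median of 0.54. Atp9a, an endosomal P4-ATPase that does not need CDC50, fell from 6.36 and 6.20 to 0.926 and 0.377 RPKM, a log2 difference of -3.19 (SE 0.36, limma adjusted p 0.00185). Both AnnexinV-negative libraries were far above both others, and the fall also passed on the 3 other scales (-3.50 centred, -4.13 on the TPM scale and -4.31 microglia-centred), while markers of oligodendrocytes, astrocytes and vessels fell in the same libraries; their part in it was not tested. Atp9a met the minimum of 1 RPKM only through the group where it is high; in the wider fit, whose minimum of 0.1 all 4 libraries reached, its limma adjusted p was 0.00479. Its level was not tied to that of Tmem30a, which stood at 36.5 and 83.7 times Atp9a in AnnexinV-positive and 4.95 and 4.36 times in AnnexinV-negative cells.

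Atp8a2, a flippase close to Atp8a1 and known from neurons, rose from 0.751 and 0.967 to 3.27 and 2.24 RPKM (log2 difference 1.56, SE 0.28, limma adjusted p 0.00676). It met the minimum only through the AnnexinV-positive group, and in the wider fit, with all 4 libraries above 0.1 RPKM, its limma adjusted p was 0.0129. The call held on the centred scale (1.24, limma adjusted p 0.0246) but not on the TPM scale (0.88, 0.0945). Of its exonic bases 15.6% are shared with other genes. Atp8a1 stood at 5.004 and 5.60 times Atp8a2 in AnnexinV-positive and 14.1 and 12.3 times in AnnexinV-negative cells, so the pair differed in its ratio by more than the spread between replicates. Of 10 neuron markers 3 were tested, 2 lower and 0 higher, beside 9.26% and 30.8% of all genes tested. The 2 lower ones, Tubb3 and Stmn2, met the minimum only through the AnnexinV-negative group. Of the neuron markers under the minimum, Rbfox3 was higher without overlap and Syt1, Nefl, Nefm and Gad1 were lower without overlap. Slc17a7 and Camk2a overlapped between groups. Whether neurons have a part in the rise of Atp8a2 was not tested. Atp9b rose by a log2 difference of 0.93 (limma adjusted p 0.0143), with 0.62, 0.17 and -0.19 on the centred, TPM and microglia-centred scales, none past the test. Atp8b2 and Atp10a did not pass the test. In the P4-ATPase family as a whole 9 of 15 genes were tested, with 2 higher and 1 lower, beside 30.8% and 9.26% of all genes tested.

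**Figure D4:**
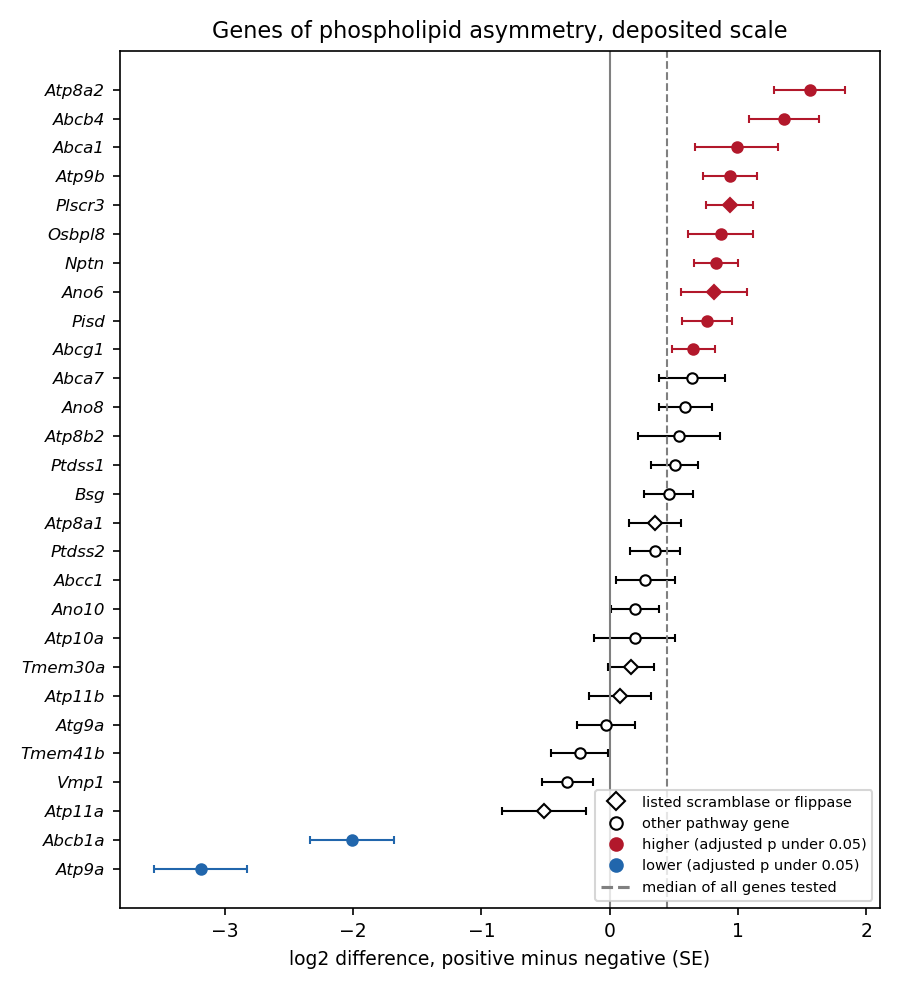
Log2 difference, AnnexinV-positive minus AnnexinV-negative, with its SE, for 28 of the genes of phospholipid asymmetry tested; diamonds are the listed scramblases and flippases, colour marks calls and the dashed line is the median of all genes tested, 0.45. Atp9a (-3.19) and Abcb1a (-2.01) stand apart at the low end and Atp8a2 (1.56) at the high end.

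RNA of the proteins that act with Xkr8 was well measured where RNA of Xkr8 itself was low. Nptn, which with basigin carries Xkr8 to the cell surface, rose from 13.1 and 12.3 to 23.2 and 22.2 RPKM (0.83, SE 0.17, limma adjusted p 0.0108). Bsg, basigin, was at 182 and 206 against 153 and 129.5 RPKM (0.46, limma adjusted p 0.0940). Nptn was at 0.52 on the centred scale (limma adjusted p 0.0730), 0.06 on the TPM scale and -0.29 on the microglia-centred one, and did not pass on these.

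The 8 genes of the Xk-related family all lay below the minimum for the test, and the highest value among them was the 1.06 of Xkr8. Xkr9, another family member that caspases activate, was at 0.247 to 0.352 RPKM in all 4 libraries. In the TMEM16 family 3 of 10 genes were tested, and Ano6 was the one called, where 30.8% of all genes tested were higher. Ano8, which shares exonic bases with the more abundant Dda1, was at 0.59 (limma adjusted p 0.0595) and Ano10 at 0.20 (0.407). The TMEM16 genes Ano1 and Ano4, both under the minimum, were called lower in the wider fit, where 12.8% of all genes were lower. Ano1, a calcium-activated chloride channel, was at 0.121 and 0.119 against 1.36 and 0.850 RPKM (log2 difference -2.42, limma adjusted p 0.00798), and Ano4 was at 0.116 and 0.0669 against 0.928 and 0.906 RPKM (-2.42, limma adjusted p 0.00685). They were named after their values were seen, as were Atp10b (-1.43, limma adjusted p 0.0182), Atp8b4 (-1.10, 0.0447) and Osbpl10 (-1.35, 0.0306), the other genes that became lower calls there. Ano4, Atp8b4 and Osbpl10 met the wider fit's minimum only through the AnnexinV-negative group, where they are high.

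Genes that make and move phosphatidylserine gave 2 higher calls of 4 tested, where 30.8% of all genes tested were higher. Pisd, which turns it into phosphatidylethanolamine in mitochondria, rose by 0.76 (limma adjusted p 0.0212), and Osbpl8, a carrier from the endoplasmic reticulum to the plasma membrane, by 0.86 (0.0345) on the log2 scale. The synthases Ptdss1 and Ptdss2 were at 0.50 and 0.35 (limma adjusted p 0.0650 and 0.183). On the TPM scale Pisd, which shares exonic bases with genes listed at 0, was at -0.01 and Osbpl8 at 0.10. Intracellular scramblases gave no call among 3 tested (limma), with Vmp1 at -0.33, Tmem41b at -0.24 and Atg9a at -0.03. At an unadjusted p under 0.05 limma in the wider fit gave 0 of these 3, beside 17.6% of all genes higher and 19.9% lower. Among ABC transporters that move lipids outward, Abcb4, for phosphatidylcholine, rose by 1.36 (limma adjusted p 0.010), Abca1 and Abcg1, for cholesterol efflux, by 0.99 (0.0471) and 0.65 (0.0237). On the TPM scale these were at 0.67, 0.21 and -0.12, none past the test. Abcb1a, an efflux pump of brain endothelium, fell by 2.01 (limma adjusted p 0.00535), beside the 6 of 8 endothelial markers that fell. Abcb4 and Abcb1a met the minimum only through the group where each is high; in the wider fit, with all 4 libraries above 0.1 RPKM, their limma adjusted p values were 0.0172 and 0.00834.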

How the data were processed

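The submitters' processing notes name GSNAP and mm10. The version, counter and gene models are not stated there. Each deposited file held 1 value per gene without a unit. The values were read as RPKM on a library scale set by the authors: of those worth under 100 reads, 79.6% to 83.6% were within 0.01 of whole multiples of a step inverse to exonic length in GENCODE vM21 (GRCm38, the assembly of mm10), which named 52489 of 52636 genes. Over the 34326 genes above 0 in all 4 libraries, the median log2 ratio of a library to the genes' geometric mean was 0.0289 in each. The deposited scale thus sets the median ratio of genes equal between libraries, not the sum of each library. Recovered reads of a member are approximate where its length differs from that used. Per the labels' protocols, the kit was TruSeq RNA v2, which does not keep strand.

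Groups came from the titles. AnnexinV-positive cells were compared with AnnexinV-negative cells in limma 3.58.1 (R 4.3.3, intensity trend) on log2(RPKM + 0.1), for genes that reached 1 RPKM in 2 of the 4 libraries, with Benjamini-Hochberg adjustment. Fold changes on this scale understate those of low genes. Steps were tested on simulated data. The members and lists were chosen with earlier results of these data known. Named genes were the members, called genes of each pathway list, the 2 nearest profiles per tested member and the 3 highest genes of a marker list, given here for microglia only, plus Enpp2. Some genes these rules select are not reported here. Alternatives were other pseudocounts, minimums, scales, a replicate block, no trend and leaving out libraries.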

Additional observations from a re-analysis of the deposited data

How the results depend on the processing

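Crossed replicate numbers, the length adjustment and the other scales for genes under the minimum were added after seeing the data. The count of members called higher, 2, fell to 1 with the minimum lowered to an RPKM of 0.1, with no minimum, with the replicate block and without the intensity trend, and to 0 on the centred, TPM and microglia-centred scales and with length adjusted; leaving out 1 library gave 1 to 2. Members called lower, 0, became 1 on the TPM scale, 4 on the microglia-centred scale, and 1 each with crossed numbers and with length adjusted; leaving out 1 library gave 0 to 0. For the other pathway genes, 10 higher became 4 with no minimum, 2 centred, 0 on the TPM scale, 0 microglia-centred and 3 with length adjusted, with 1 to 10 when 1 library was left out, and 2 lower became 7 at an RPKM of 0.1, 5 with no minimum, 4 on the TPM scale, 11 microglia-centred and 4 with length adjusted, with 2 to 2 when 1 was left out. Over all genes 3364 higher became 1865 with no minimum, 1133 centred, 113 on the TPM scale, 22 microglia-centred and 1270 with length adjusted, with 1297 to 3356 when 1 library was left out; 1012 lower became 3913 at an RPKM of 0.1, 2489 with no minimum, 2091 on the TPM scale, 5393 microglia-centred and 1830 with length adjusted, with 787 to 1060 when 1 was left out.

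The sign turned for Ano6 (-0.31) and Plscr3 (-0.19) on the microglia-centred scale; for Atp11b when centred (-0.23), on the TPM (-0.69) and microglia-centred (-1.04) scales, with length adjusted (-0.34) and without AnnexinV-positive replicate 1 (-0.16) or AnnexinV-negative replicate 1 (-0.09), with -0.16 to 0.32 over the libraries left out; for Atp8a1 on the TPM (-0.42) and microglia-centred (-0.77) scales and with length adjusted (-0.067); and for Tmem30a when centred (-0.15), on the TPM (-0.61) and microglia-centred (-0.96) scales and with length adjusted (-0.28). On the other scales this follows from the shift of the whole library, since the median of all genes tested went from 0.45 to 0.13 (centred), -0.32 (TPM) and -0.68 (microglia-centred), and with length adjusted to -0.04; for the libraries left out the cause was not tested.

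The titles number the replicates in both groups, but no label ties equal numbers to a shared animal or day, and deviations of equal numbers correlated at -0.21. With the replicate block, 2443 genes were higher and 957 lower, and Ano6 had a limma adjusted p of 0.0632 and Plscr3 of 0.0248; with numbers crossed, 4891 were higher and 1136 lower.

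The members had 107 to 23086 reads per library; for those with few reads, such as Xkr4 and Plscr1, depth limits the precision as well as the number of libraries.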
